A study of Mus musculus with 12 samples.

Results

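The 38 genes described here encode the protein folding, import and quality control machinery of the endoplasmic reticulum (ER), and were followed across 4 genotypes of mouse B220+ splenocytes. They were chosen by gene symbol, and all 38 were found among the 24421 genes counted. By role they divide into 9 lumenal chaperones and cofactors (Hspa5, Hsp90b1, Hyou1, Dnajb9, Dnajb11, Dnajc3, Sdf2l1, Manf and Creld2), 6 lectin chaperones and disulfide isomerases (Calr, Canx, Pdia3, Pdia4, Pdia6 and P4hb), 6 genes of ER-associated degradation (Herpud1, Sel1l, Syvn1, Derl1, Derl2 and Edem2), 2 stress sensors (Ern1 and Atf6), 7 subunits of the translocon and its associated TRAP complex (Sec61a1, Sec61b, Sec61g and Ssr1 to Ssr4), 4 signal peptidase subunits (Spcs1, Spcs2, Spcs3 and Sec11c) and 4 oligosaccharyltransferase subunits (Ostc, Ddost, Rpn1 and Rpn2).

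RNA was sequenced from the B220+ spleen cells of 12 mice aged 4 to 5 weeks, with 3 mice in each of 4 groups. EuMyc Max KO mice carried the EuMyc transgene and a conditional Max knockout, EuMyc mice carried the transgene with intact Max, Max KO mice carried the knockout without the transgene, and WT mice had intact Max and no transgene. EuMyc places Myc under the immunoglobulin heavy chain enhancer, which drives it in the B lineage, and the title of the series calls these EuMyc cells premalignant. The driver of the Max deletion is not given in the sources used here, and MAX is the partner with which MYC binds DNA. Mice called without Max below are those whose genotype label says Max KO. The counts do not show how complete the deletion was.

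Proteins bound for the cell surface or for secretion enter the ER through the SEC61 channel while they are being made, lose their signal peptide to signal peptidase and receive N-linked sugars from oligosaccharyltransferase. Chaperones and disulfide isomerases then fold them, and proteins that fail are returned to the cytosol and degraded. When unfolded proteins accumulate, the sensors IRE1 (Ern1), ATF6 and PERK start the unfolded protein response, which raises chaperone and degradation genes through the transcription factors XBP1, cleaved ATF6 and ATF4. In the B lineage this machinery is best known for its expansion in plasma cells, which secrete antibody.

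Several of the chaperone promoters carry the ER stress response element (ERSE), the letters CCAAT and CCACG with any 9 bases between them, which ATF6 and XBP1 are known to use together with the factor NF-Y. Of the 38 genes, 29 had an entry in the RefSeq promoter table (build GRCm38.p6), in which each window of 300 bases spans 250 bases before to 50 after the annotated start. On either strand, 8 of the 29 windows (27.6%) held an exact ERSE, against 39 of all 32851 windows (0.119%). The related ERSE-II, ATTGG and CCACG with any 1 base between them, was in the windows of Herpud1 and Dnajb11 (6.9% of the 29, against 0.0365% of all windows). The stretches with an ERSE, and that of Herpud1 with its ERSE-II, are shown because they are the sequence that a set of these genes share beyond their function. They are written 5′ to 3′ on the strand of the gene, with the fixed letters of the element in capitals. Calr, Creld2 and the second match in Hsp90b1 hold it on the opposite strand. As written here, on the strand of the gene, these matches read CGTGG before ATTGG.
Hspa5 (chr2:34772020-34772048, plus strand): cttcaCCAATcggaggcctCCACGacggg
Hsp90b1 (chr10:86705513-86705676, minus strand): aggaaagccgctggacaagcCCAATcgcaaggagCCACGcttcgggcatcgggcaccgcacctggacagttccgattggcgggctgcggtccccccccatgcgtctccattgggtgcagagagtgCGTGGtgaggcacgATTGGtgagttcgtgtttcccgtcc
Dnajc3 (chr14:118937807-118937865, plus strand): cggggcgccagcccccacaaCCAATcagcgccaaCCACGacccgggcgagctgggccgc
Creld2 (chr15:88819500-88819558, plus strand): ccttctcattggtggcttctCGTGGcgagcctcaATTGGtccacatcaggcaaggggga
Calr (chr8:84847055-84847113, minus strand): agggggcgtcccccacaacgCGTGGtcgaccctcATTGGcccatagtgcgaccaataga
Canx (chr11:50325780-50325838, minus strand): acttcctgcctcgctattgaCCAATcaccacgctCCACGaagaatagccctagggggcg
Pdia6 (chr12:17266471-17266529, plus strand): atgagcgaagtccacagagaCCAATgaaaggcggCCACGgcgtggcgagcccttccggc
Syvn1 (chr19:6046512-6046570, plus strand): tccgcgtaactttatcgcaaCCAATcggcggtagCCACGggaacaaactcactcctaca
Herpud1 (chr8:94386357-94386407, plus strand): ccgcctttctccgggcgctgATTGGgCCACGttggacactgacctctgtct
The UPRE letters TGACGTGG were in 0 of the 29 windows and in 0.676% of all windows, and the E-box CACGTG, which MYC and MAX dimers are known to bind, was in 3 of the 29 (10.3%; Calr, Dnajb9 and Ssr1) against 7.15% of all windows. None of these matches overlapped another in a member's window. They are matches of letters and no test of binding. The genes were chosen for their role in folding and in the unfolded protein response, so their share with an ERSE is a description and no independent result. Members were counted by gene and all promoters by window.

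**Figure D1:**
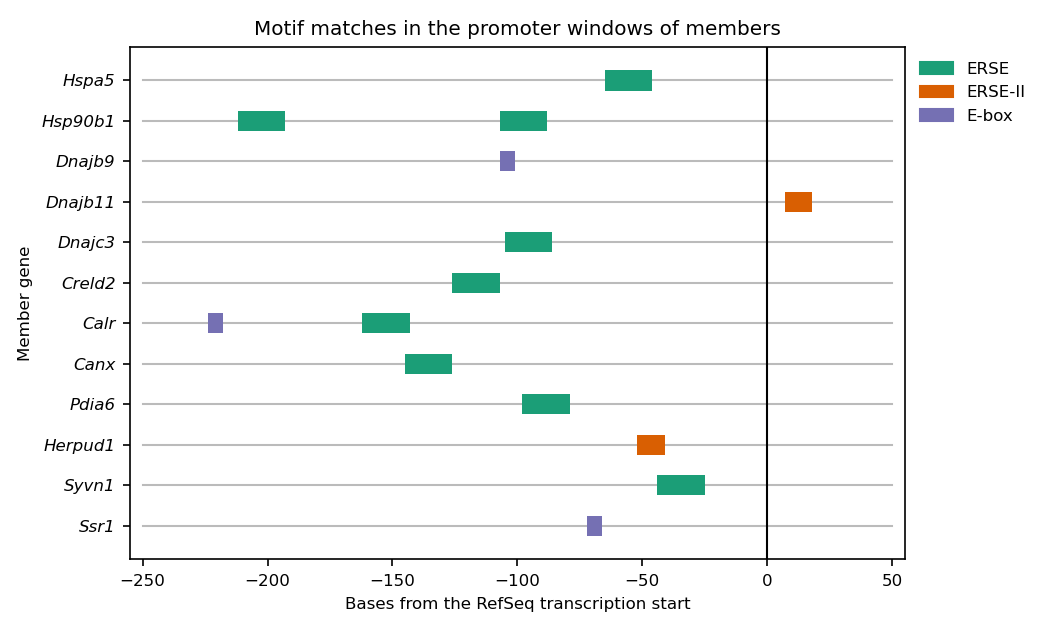
Positions of motif matches in the promoter windows of the members, by distance in bases from the annotated start (horizontal axis), with a line for each gene that held a match and a coloured bar for each match of the ERSE, ERSE-II or E-box. The ERSE matches lie upstream of the start, in 8 of the 29 windows.

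Reads assigned to genes numbered 17890935 to 18668193 per library in EuMyc Max KO, 20221681 to 21671601 in EuMyc, 14973332 to 17125122 in Max KO and 16629314 to 17647732 in WT. Levels below are in CPM, counts scaled to the same total of such reads in every library with TMM factors, changes are log2 fold changes from edgeR's quasi-likelihood test with their standard error (SE), and calls used p-values adjusted by Benjamini-Hochberg over 12878 genes, with a threshold of 0.05. Myc had 487 to 565 CPM in EuMyc Max KO, 975 to 1049 CPM in EuMyc, 119.8 to 136 CPM in Max KO and 96.0 to 115 CPM in WT. Max averaged 105 ± 3.15 CPM in EuMyc Max KO and 128 ± 1.87 CPM in EuMyc (SD, n = 3 each; adjusted p = 0.00462), and 101 ± 1.28 CPM in Max KO and 119 ± 16.8 CPM in WT (adjusted p = 0.0623); counts per gene do not show the deleted part of Max. The summed level of 8 B cell markers was 7604 to 9254 CPM in EuMyc Max KO, 4373 to 5234 in EuMyc, 9323 to 10320 in Max KO and 11040 to 11960 in WT. The same range for 11 macrophage and monocyte markers was 2874 to 4872, 796.7 to 944.5, 2684 to 3870 and 1648 to 2046 CPM, and for 11 erythroid markers 926.8 to 5266, 310.0 to 398.5, 142.5 to 421.8 and 63.85 to 284.7 CPM, both in the same order of groups. For 8 T cell markers it was 276.7 to 302.9, 123.2 to 146.0, 299.0 to 318.5 and 290.4 to 307.8 CPM. Of the defining markers of these types none was at 0 in a whole group, and the lowest was the T cell marker Cd3e, with 0.0484 to 0.261 CPM in EuMyc. For 7 neutrophil markers it was 19.18 to 253.9, 9.247 to 14.6, 11.18 to 145.1 and 3.157 to 11.92 CPM. The mice of EuMyc Max KO differed, at -73.1, -56.8 and -19.6 on the second principal component of all genes for replicates 1, 2 and 3. Libraries of the other groups lay at 1.67 to 38.1, nearer to replicate 3. The erythroid marker Slc4a1 had 3196, 2083 and 488 CPM in these replicates, and the neutrophil marker S100a9 76.3, 70.7 and 6.91 CPM.

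The summed level of the 38 genes was 7331 to 7676 CPM in EuMyc Max KO, 7328 to 7503 CPM in EuMyc, 6478 to 7315 CPM in Max KO and 6887 to 7759 CPM in WT, so that every Max KO mouse was below every EuMyc Max KO and EuMyc mouse, while WT overlapped each other group. As a share of all reads in genes, before TMM scaling, they took 0.739% to 0.791% in EuMyc Max KO, 0.697% to 0.699% in EuMyc, 0.677% to 0.753% in Max KO and 0.706% to 0.783% in WT. On that scale every EuMyc mouse was below every EuMyc Max KO and WT mouse. Per kilobase of annotated exon the highest mean levels in WT were those of Calr (226.9 CPM per kb), Pdia4 (214.8), Hsp90b1 (196.3), Hspa5 (135.6) and Pdia3 (128.0), and the lowest was that of Ern1 (3.096 CPM per kb). In EuMyc the level of Pdia4 was 100.3 CPM per kb, below those of Hsp90b1 (204.8), Calr (179.3), Pdia3 (130.6) and Hspa5 (112.3). In bulk samples such as these, fewer cells of a type and less RNA per cell cannot be told apart.

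**Figure D2:**
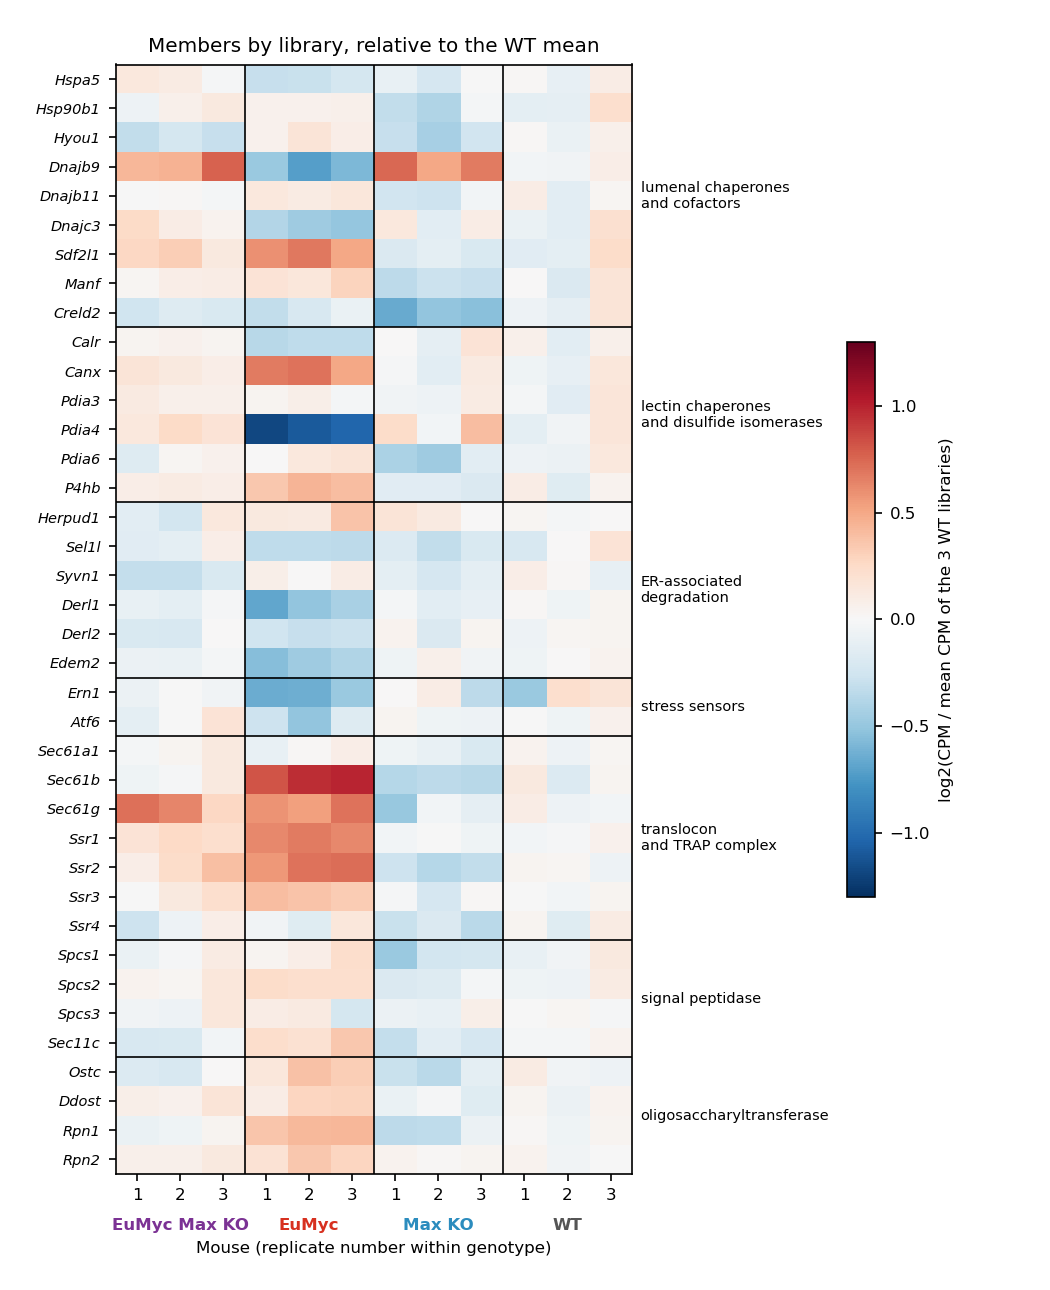
Level of each of the 38 genes (rows, grouped by role) in each of the 12 libraries (columns, grouped by genotype), as the log2 ratio of its CPM to the mean CPM of the 3 WT libraries. The 3 EuMyc columns stand apart, with Pdia4, Derl1 and Edem2 low and Sec61b, Ssr1 and Ssr2 high.

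The comparison of EuMyc with WT asks what the transgene changed with Max intact. In EuMyc cells 11 of the 15 subunits that import, trim and glycosylate nascent proteins rose. The sensors Ern1 and Atf6 and 4 of 6 degradation genes fell, and the chaperones split. Of the 38 genes 15 were higher (39.5%) and 11 lower (28.9%), against 36.7% higher and 34.9% lower of all genes tested (71.6% in all), so the share called was near that of all genes. The median log2 change was 0.10 over the 38 and 0.01 over all genes. The EuMyc and WT mice did not overlap for 16 members higher and 10 lower in EuMyc, against 39.7% and 37.6% of all genes. Such separation, given for single members below, was thus common among all genes. The changes were small: Pdia4 alone passed the test with a change over 2-fold, whereas 30.9% of all genes did. All 4 oligosaccharyltransferase genes were called higher (median log2 change 0.28), as were 5 of 7 translocon and TRAP genes (0.61) and 2 of 4 signal peptidase genes (0.17), with none lower in these roles. Of the degradation genes 4 of 6 were called lower (-0.31) and none higher, as were both sensors (-0.45). Among the lumenal chaperones 2 were higher and 3 lower (0.06), and among the lectin chaperones and isomerases 2 were higher and 2 lower (0.07). Under upper-quartile factors or library totals in place of TMM the all-gene median moved to -0.12 or -0.09, and the medians of the members (-0.02 and -0.0004) and of both chaperone roles turned negative; those of the other 5 roles kept their sign. Under either of these scalings 10 members were higher and 12 lower, so the balance of calls turned, and over all genes the calls were 4093 higher and 5164 lower with upper-quartile factors and 4217 and 5035 with library totals.

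Beside these changes, 6 of 11 plasma cell markers were lower in EuMyc than in WT and 2 higher. The summed level of that list was 935.7 to 1133 CPM in EuMyc and 1190 to 1957 CPM in WT, with none of its genes at 0. Jchain alone had 48.1 to 188 CPM in EuMyc and 508 to 1148 CPM in WT, and the lower sum in EuMyc rests on that gene. Markers of B cells (8 of 8), T cells (8 of 8), macrophages and monocytes (10 of 11), dendritic cells (6 of 7) and NK cells (5 of 6) were also lower in EuMyc, and 4 of 8 tested erythroid markers were higher. The summed level of the dendritic cell list, a type that can also carry B220, was 39.17 to 50.15 CPM in EuMyc and 129.9 to 202 CPM in WT. The part of these cells in the results was not tested.

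The comparison of EuMyc Max KO with EuMyc asks what loss of Max changed in transgenic cells. Myc itself was also lower in EuMyc Max KO (log2 change -0.95, SE 0.080, adjusted p = 2.5e-07), and its part in the result was not tested. Here Pdia4, Dnajb9, Hspa5, Calr, Dnajc3, 3 degradation genes and the sensors Ern1 and Atf6 were higher without Max. The chaperones Hyou1, Sdf2l1, Canx and P4hb were lower, and the translocon, signal peptidase and oligosaccharyltransferase genes were lower or not called. Of the 38 genes 10 were higher (26.3%) and 15 lower (39.5%), against 37.6% higher and 36.1% lower of all genes (73.7% in all). The median log2 change was -0.12 over the 38 and 0.03 over all genes. Pdia4 and Dnajb9 were higher by over 2-fold, and 32.4% of all genes passed the test with such a change in either direction. Called lower were 4 of 7 translocon and TRAP genes (median log2 change -0.25), 3 of 4 oligosaccharyltransferase genes (-0.30) and 2 of 4 signal peptidase genes (-0.13), with none higher. Among the lumenal chaperones 3 were higher and 2 lower, and among the lectin chaperones and isomerases 2 were higher and 2 lower. Of the degradation genes 3 were higher and 2 lower (0.21), and both sensors were higher (0.44). Under upper-quartile factors or library totals the all-gene median moved to 0.12 or 0.15 and the median of the members to -0.03 or 0.002, and the medians of both chaperone roles, -0.02 and -0.04 with TMM, turned positive. The members called were then 11 higher and 11 lower with upper-quartile factors and 12 higher and 10 lower with library totals, so the majority lower did not hold; over all genes the calls were 5288 higher and 4141 lower, and 5470 and 3995. Without EuMyc Max KO replicate 3, 9 members were higher and 15 lower. This comparison and that of EuMyc with WT share the EuMyc libraries. Macrophage markers (11 of 11), tested erythroid markers (8 of 8), T cell markers (8 of 8), NK cell markers (6 of 6) and tested neutrophil markers (5 of 5) were all higher in EuMyc Max KO than in EuMyc. Of the dendritic cell markers 6 of 7 were higher, of the B cell markers 7 of 8 were higher and 1 lower, and 6 of 11 plasma cell markers were higher and 2 lower; their part in the result was not tested.

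Max KO set against WT shows loss of Max without the transgene, and 10 of the 38 genes were called. In Max KO cells Dnajb9 was higher than in WT, and Hyou1, Manf, Creld2, Pdia6, Sec61b, Ssr2, Spcs1, Sec11c and Rpn1 were lower. That was 1 gene higher (2.63%) and 9 lower (23.7%) of 38, against 7.27% higher and 7.74% lower of all genes (15.0% in all). The median log2 change was -0.12 over the 38 and -0.003 over all genes. The calls for Dnajb9, Hyou1 and Creld2 held under every alternative run, and the other 7 did not. The number called lower fell to 3 without Max KO replicate 1, 4 without Max KO replicate 2, 4 without WT replicate 1, 5 without WT replicate 3 and 5 with library totals. The calls over all genes fell as well: 435, 552, 497 and 762 genes were lower in those 4 fits without a library, against 997 with all libraries. With library totals the calls over all genes were 1130 higher and 719 lower, against 936 and 997 with TMM. Of the plasma cell markers 4 of 11 were lower and 1 higher in Max KO. Their summed levels were 695.2 to 851.3 CPM in Max KO and 1190 to 1957 CPM in WT, ranges that did not overlap. Jchain alone had 73.8 to 187 CPM in Max KO and 508 to 1148 CPM in WT, and the gap between the ranges rests on that gene. Of the macrophage and monocyte markers 4 of 11 were higher in Max KO, and of the dendritic cell markers 2 of 7. The summed level of the former was 2684 to 3870 CPM in Max KO and 1648 to 2046 CPM in WT, without overlap. Of the T cell markers 2 of 8 were higher and 1 lower, and of the B cell markers 2 of 8 were lower. No tested NK cell, erythroid or neutrophil marker was called. The part of all these markers in the result was not tested.

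**Figure D3:**
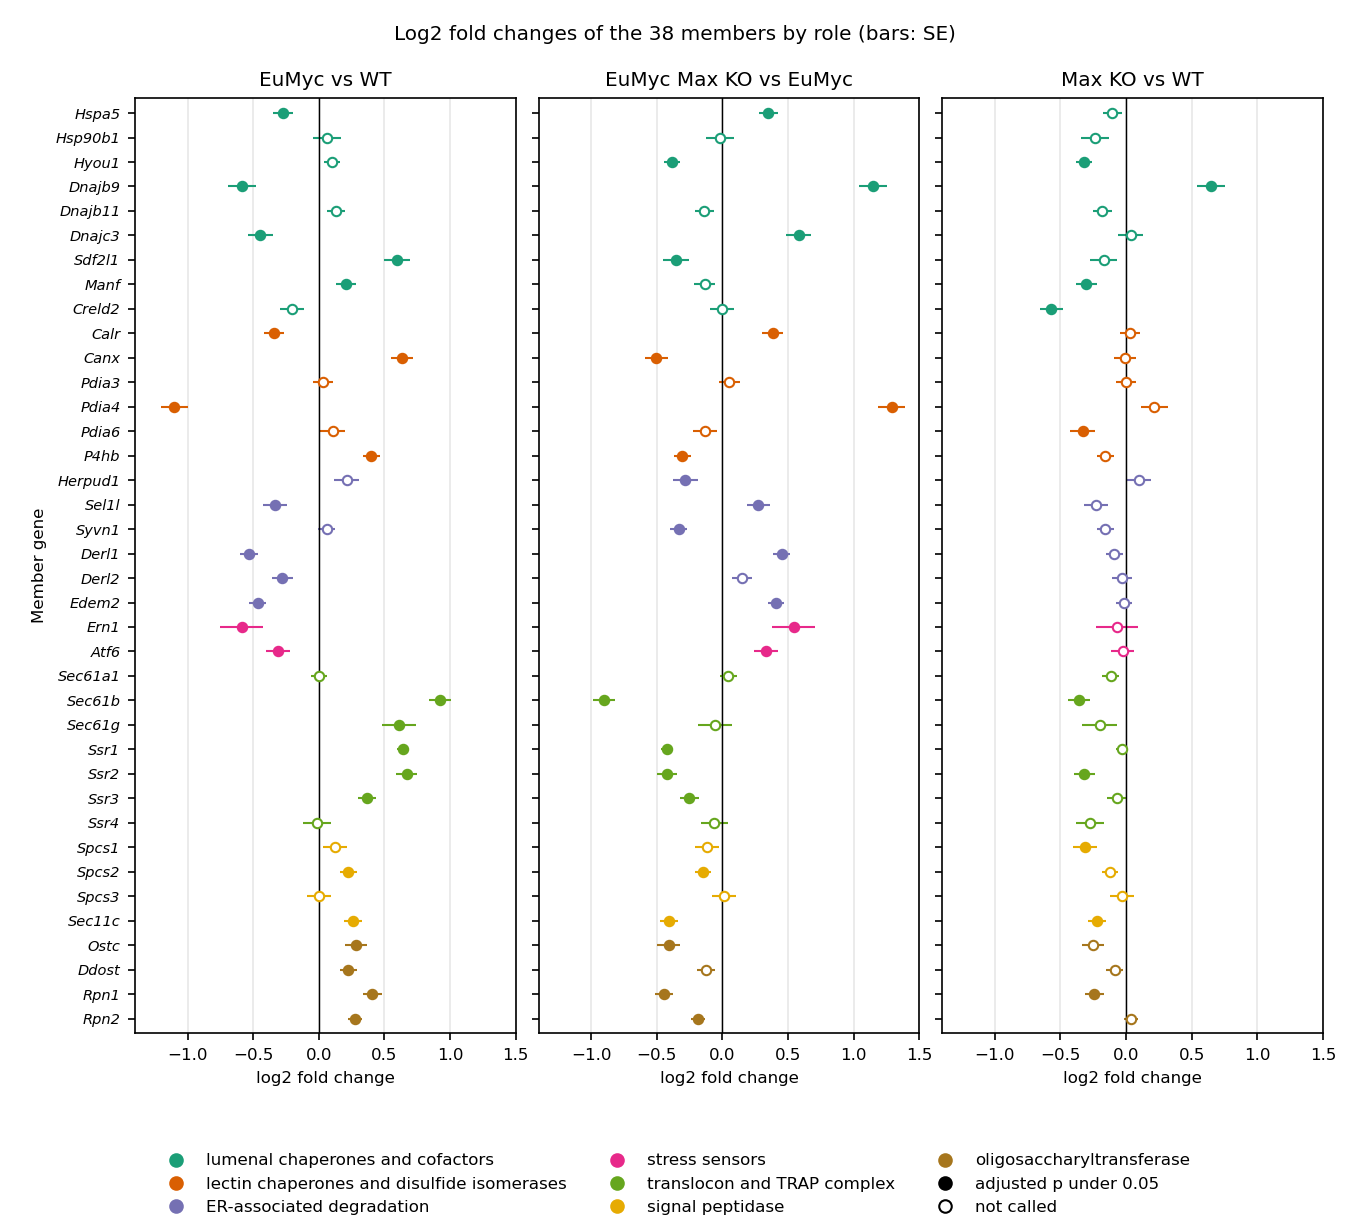
Log2 fold changes of the 38 genes (by role) in 3 comparisons: EuMyc with WT, EuMyc Max KO with EuMyc, and Max KO with WT, with bars of 1 SE; filled points passed the test at an adjusted p under 0.05. Pdia4 has the lowest value in EuMyc against WT (-1.1) and the highest in EuMyc Max KO against EuMyc (1.29).

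Among the lumenal chaperones, Hspa5 encodes BiP, the HSP70 of the ER and the main brake on the sensors. It had 630.1, 616 and 568 CPM in EuMyc Max KO, 467, 469.6 and 488 CPM in EuMyc, 535, 492 and 573 CPM in Max KO and 578, 531 and 612 CPM in WT. The 3 EuMyc mice were below every mouse of the other groups. Hspa5 was lower in EuMyc than in WT (log2 change -0.27, SE 0.074, adjusted p = 0.00497) and higher in EuMyc Max KO than in EuMyc (0.35, SE 0.074, adjusted p = 0.000856).

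Dnajb9 (ERdj4; chr12:44205559-44210326, minus strand, mm10) is a J-domain partner of BiP that restrains IRE1. Its level was 35.9, 36.3 and 45.2 CPM in EuMyc Max KO, 19.1, 16.2 and 17.8 CPM in EuMyc, 44.4, 37.7 and 42.5 CPM in Max KO and 25.8, 25.7 and 28.1 CPM in WT. All 6 mice without Max were above all 6 mice with it. Dnajb9 was the only member called higher on loss of Max both with and without the transgene: the log2 change was 1.15 in EuMyc Max KO against EuMyc (SE 0.11, adjusted p = 5.5e-07) and 0.65 in Max KO against WT (SE 0.10, adjusted p = 0.00205). In EuMyc against WT it was -0.59 (SE 0.11, adjusted p = 0.000245).

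Dnajc3 (p58IPK), a lumenal co-chaperone that also damps PERK, had 149, 135 and 130.2 CPM in EuMyc Max KO, 96.9, 91.0 and 89.0 CPM in EuMyc, 138, 114 and 134 CPM in Max KO and 118, 114 and 145 CPM in WT. Again the lowest were the EuMyc mice, with no overlap. Its log2 change was -0.45 in EuMyc against WT (SE 0.096, adjusted p = 0.000984) and 0.58 in EuMyc Max KO against EuMyc (SE 0.096, adjusted p = 0.000116).

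Sdf2l1, a cofactor that prolongs the action of BiP and its J proteins, ran the other way. It had 42.6, 44.1 and 38.7 CPM in EuMyc Max KO, 53.5, 56.9 and 50.1 CPM in EuMyc, 31.1, 32.4 and 30.9 CPM in Max KO and 31.9, 32.5 and 41.9 CPM in WT. Every EuMyc mouse was above every other mouse. On the log2 scale Sdf2l1 changed by 0.60 in EuMyc against WT (SE 0.10, adjusted p = 0.000145) and -0.36 in EuMyc Max KO against EuMyc (SE 0.10, adjusted p = 0.00608; 0.0509 with library totals).

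Hyou1 (GRP170), a large HSP70-like chaperone and exchange factor for BiP, was low in both groups without Max. It had 149.9, 159 and 152 CPM in EuMyc Max KO, 194, 209.9 and 199 CPM in EuMyc, 152, 139 and 158 CPM in Max KO and 188, 177 and 196 CPM in WT. Each mouse without Max was below each mouse with it. On loss of Max its log2 change was -0.39 in EuMyc Max KO against EuMyc (SE 0.061, adjusted p = 8.36e-05) and -0.32 in Max KO against WT (SE 0.062, adjusted p = 0.00547); between EuMyc and WT it was 0.10 (SE 0.061, adjusted p = 0.146).

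Creld2, a stress-induced protein with isomerase activity, had 29.1, 32.2 and 31.4 CPM in Max KO and 43.7, 42.2 and 51.6 CPM in WT. The Max KO mice were all lower (log2 change -0.57, SE 0.089, adjusted p = 0.00185). With the transgene it had 38.2, 40.8 and 40.0 CPM in EuMyc Max KO and 36.7, 39.6 and 43.0 CPM in EuMyc, which overlapped.

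Manf, a secreted stress protein that binds BiP, had 77.2 to 80.9 CPM in EuMyc Max KO, 84.0 to 92.9 CPM in EuMyc, 60.0 to 62.6 CPM in Max KO and 66.6 to 85.0 CPM in WT. Its log2 change was 0.21 in EuMyc against WT (SE 0.078, adjusted p = 0.0304) and -0.30 in Max KO against WT (SE 0.079, adjusted p = 0.024). The first call was lost in 8 of 19 alternatives, among them without WT replicate 1 or 2, EuMyc replicate 2 or 3 or Max KO replicate 3 (highest adjusted p over all alternatives 0.383), and the second in 4, without replicate 1 or 3 of WT or 1 or 2 of Max KO (highest 0.0866). Hsp90b1 (GRP94), the HSP90 of the ER, and Dnajb11 (ERdj3), another BiP partner, passed the test in none of the 6 contrasts.

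**Figure D4:**
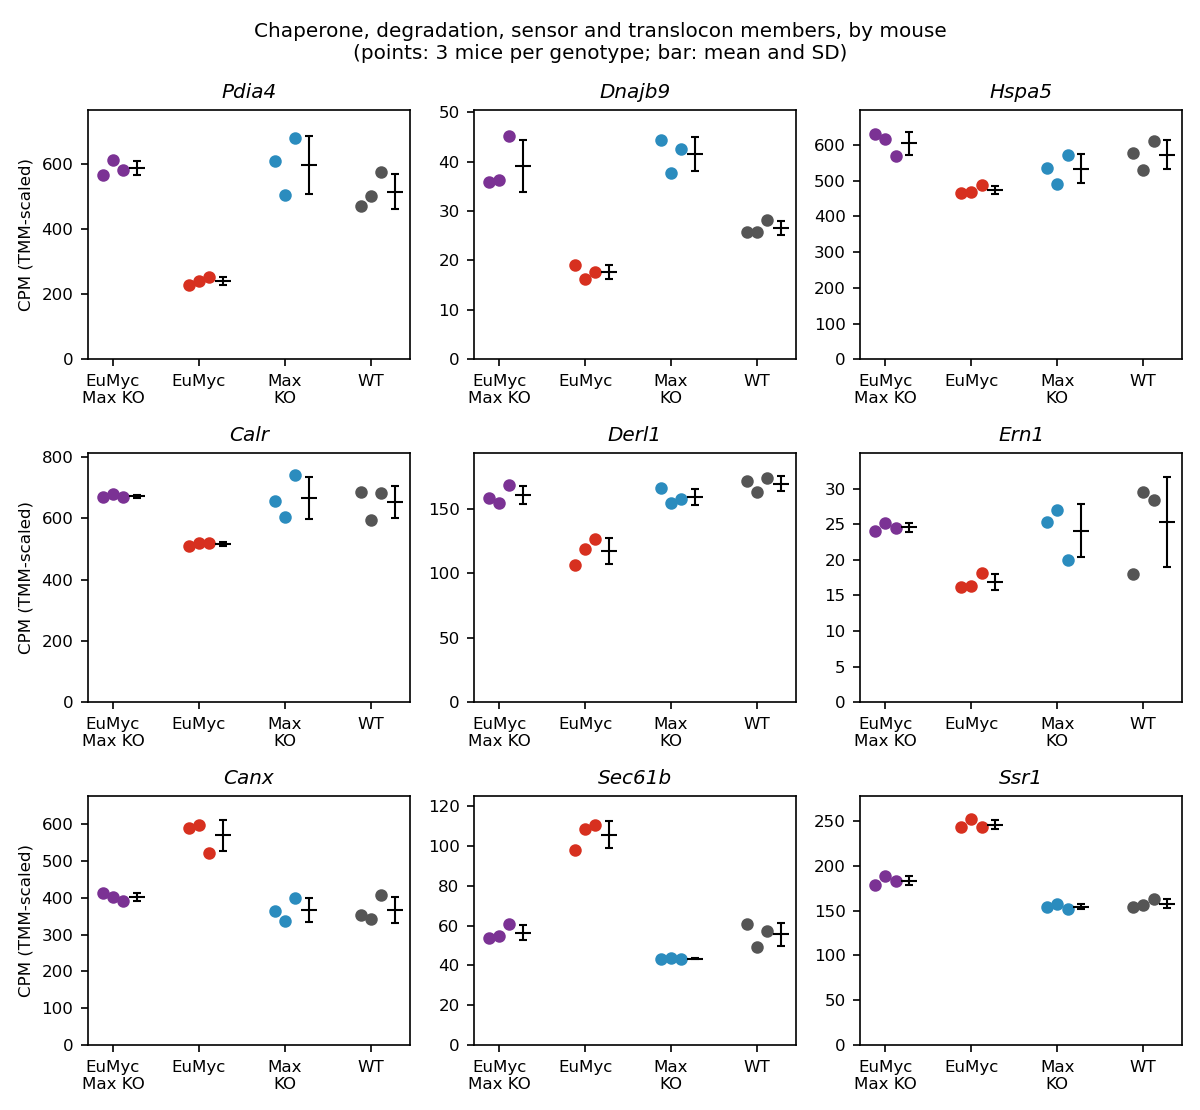
Levels in CPM of single members in each of the 12 mice, by genotype, with points for the 3 mice of a group and a bar beside them for the mean and its SD. Pdia4, with 227 to 252 CPM in EuMyc, lies below the 471 to 575 CPM of WT, and Sec61b, with 98.1 to 110.4 CPM in EuMyc, lies above the 49.2 to 60.6 CPM of WT.

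Among the disulfide isomerases Pdia4 (ERp72; chr6:47796141-47813430, minus strand, mm10) had the largest change of all 38 genes. It had 568, 612 and 583 CPM in EuMyc Max KO, 227, 242 and 252 CPM in EuMyc, 609.6, 504 and 679 CPM in Max KO and 471, 501 and 575 CPM in WT. The 3 EuMyc mice formed a low group of their own, and the other 9 mice overlapped. For Pdia4 the log2 change was -1.1 in EuMyc against WT (SE 0.10, adjusted p = 6.4e-07) and 1.29 in EuMyc Max KO against EuMyc (SE 0.10, adjusted p = 1.64e-07). In Max KO against WT it was 0.21 and not called (SE 0.10, adjusted p = 0.177).

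Calr and Canx encode calreticulin and calnexin, the soluble and the membrane-bound lectin chaperone of the same folding cycle, and they moved in opposite directions. Calr had 670.3, 679 and 669 CPM in EuMyc Max KO, 510.4, 520.0 and 518 CPM in EuMyc, 655, 604 and 741 CPM in Max KO and 685, 593 and 682 CPM in WT. Canx (chr11:50293961-50325673, minus strand, mm10) had 414, 402 and 391 CPM in EuMyc Max KO, 589.5, 599 and 522 CPM in EuMyc, 364, 336 and 399 CPM in Max KO and 354, 342 and 408 CPM in WT. In EuMyc mice Calr was below and Canx above every mouse of the other groups. In EuMyc against WT the log2 change was -0.34 for Calr (SE 0.079, adjusted p = 0.00167) and 0.63 for Canx (SE 0.085, adjusted p = 1.91e-05). In EuMyc Max KO against EuMyc it was 0.38 for Calr (SE 0.079, adjusted p = 0.000693) and -0.50 for Canx (SE 0.085, adjusted p = 0.000143). Both promoters hold an ERSE.

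P4hb, the classical protein disulfide isomerase, followed Canx. It had 289.9, 294 and 289.9 CPM in EuMyc Max KO, 348, 371 and 361 CPM in EuMyc, 248, 247 and 239 CPM in Max KO and 292, 245 and 283 CPM in WT. The EuMyc mice were the highest without overlap, by a log2 change of 0.40 over WT (SE 0.065, adjusted p = 0.000101). In EuMyc Max KO against EuMyc the log2 change was -0.31 (SE 0.065, adjusted p = 0.00082). Pdia6 was lower in Max KO, with 141, 135 and 169.8 CPM, than in WT, with 178, 177 and 206 CPM (log2 change -0.33, SE 0.094, adjusted p = 0.0341). That call was lost in 5 of 19 alternatives, with library totals or without replicate 1 or 3 of WT or 1 or 2 of Max KO (highest adjusted p 0.124). Pdia3 (ERp57), which works with calnexin and calreticulin, passed the test in none of the 6 contrasts and had 363 to 448 CPM in every library.

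Of the degradation genes, Derl1 (chr15:57869502-57892448, minus strand, mm10), a channel component of the retrotranslocation machinery, had 159, 155 and 169 CPM in EuMyc Max KO, 107, 119 and 127 CPM in EuMyc, 167, 154 and 158 CPM in Max KO and 172, 163 and 174 CPM in WT. All 3 EuMyc mice lay below every other mouse. For Derl1 the log2 change was -0.53 in EuMyc against WT (SE 0.066, adjusted p = 8.63e-06) and 0.45 in EuMyc Max KO against EuMyc (SE 0.066, adjusted p = 3.84e-05).

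Edem2, which starts the mannose trimming that marks glycoproteins for degradation, had 70.2, 70.1 and 73.1 CPM in EuMyc Max KO, 50.5, 54.0 and 56.6 CPM in EuMyc, 71.4, 77.5 and 71.8 CPM in Max KO and 71.4, 74.6 and 76.8 CPM in WT. Here too only the EuMyc mice stood apart. For Edem2 the log2 change was -0.47 in EuMyc against WT (SE 0.062, adjusted p = 1.57e-05) and 0.41 in EuMyc Max KO against EuMyc (SE 0.062, adjusted p = 5.66e-05).

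Sel1l, the scaffold of the HRD1 ubiquitin ligase, had 133, 135 and 156 CPM in EuMyc Max KO, 117, 117 and 116 CPM in EuMyc, 130.2, 118 and 128 CPM in Max KO and 127, 148 and 167 CPM in WT. It was lower in EuMyc than in WT without overlap (log2 change -0.33, SE 0.090, adjusted p = 0.00465). Its rise in EuMyc Max KO over EuMyc was 0.27 on the log2 scale (SE 0.089, adjusted p = 0.0144), and without EuMyc Max KO replicate 3 the adjusted p was 0.0597. Derl2 was lower in EuMyc, with 43.0 to 44.1 CPM, than in WT, with 50.6 to 54.2 CPM (log2 change -0.28, SE 0.079, adjusted p = 0.00647).

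Syvn1, the HRD1 ligase itself, and Herpud1, a stress-induced partner of it, went against the other degradation genes in EuMyc Max KO against EuMyc. Syvn1 had 257, 258 and 278 CPM in EuMyc Max KO, 336, 322 and 341 CPM in EuMyc, 292, 274 and 293 CPM in Max KO and 340.4, 322 and 296 CPM in WT. The EuMyc Max KO mice were below the EuMyc mice and the WT mice (log2 change -0.33 against EuMyc, SE 0.063, adjusted p = 0.000354, and -0.27 against WT, SE 0.063, adjusted p = 0.00696). Herpud1 had 141, 131 and 170.1 CPM in EuMyc Max KO and 169.8, 168 and 201 CPM in EuMyc, which overlapped. Its log2 change was -0.28 (SE 0.093, adjusted p = 0.0148), and the call was lost in 5 of 19 alternatives, among them without EuMyc replicate 3 or EuMyc Max KO replicate 2 (highest adjusted p 0.142).

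The 2 stress sensors among the members were both lowest in EuMyc. Ern1, which encodes IRE1, the kinase and endonuclease that splices Xbp1 mRNA, had 24.0, 25.2 and 24.4 CPM in EuMyc Max KO, 16.1, 16.3 and 18.1 CPM in EuMyc, 25.4, 27.0 and 19.9 CPM in Max KO and 18.1, 29.5 and 28.4 CPM in WT. One WT mouse lay at the level of the EuMyc mice. Its log2 change was -0.59 in EuMyc against WT (SE 0.16, adjusted p = 0.00621) and 0.54 in EuMyc Max KO against EuMyc (SE 0.16, adjusted p = 0.00929). Atf6, the membrane-bound transcription factor released by cleavage, had 148, 160.2 and 183 CPM in EuMyc Max KO, 134, 113 and 143 CPM in EuMyc, 165, 156 and 154 CPM in Max KO and 160.3, 155 and 168 CPM in WT. The EuMyc mice were below all others (log2 change against WT -0.31, SE 0.090, adjusted p = 0.0074; EuMyc Max KO against EuMyc 0.33, SE 0.090, adjusted p = 0.00478). The sensor PERK is encoded by Eif2ak3, which is not a member and was named after its values were seen. It had 119 to 139 CPM in EuMyc Max KO, 123 to 136 CPM in EuMyc, 130 to 138 CPM in Max KO and 169 to 195 CPM in WT. Unlike Ern1 and Atf6, it overlapped between EuMyc Max KO and EuMyc. Counts per gene show neither Xbp1 splicing nor ATF6 cleavage.

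In the translocon, Sec61b (chr4:47474658-47483242, plus strand, mm10), the small beta subunit of the channel, had the largest rise with the transgene among the members. It had 53.5, 54.9 and 60.9 CPM in EuMyc Max KO, 98.1, 108 and 110.4 CPM in EuMyc, 43.0, 43.8 and 43.4 CPM in Max KO and 60.6, 49.2 and 57.1 CPM in WT. All EuMyc mice were far above the rest, and the Max KO mice below every WT mouse. Its log2 change was 0.92 in EuMyc against WT (SE 0.082, adjusted p = 3.7e-07) and -0.90 in EuMyc Max KO against EuMyc (SE 0.082, adjusted p = 4.95e-07). In Max KO against WT it was -0.36 (SE 0.083, adjusted p = 0.014; up to 0.053 without replicate 1 of WT or of Max KO).

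Sec61a1, the pore-forming subunit, passed the test in none of the 6 contrasts. Sec61g, the gamma subunit, followed the transgene with or without Max: it had 70.6, 66.8 and 51.6 CPM in EuMyc Max KO, 64.5, 62.0 and 70.2 CPM in EuMyc, 30.5, 41.9 and 39.6 CPM in Max KO and 45.9, 40.9 and 41.9 CPM in WT. All 6 transgenic mice were above all 6 others. The log2 change was 0.61 in EuMyc against WT (SE 0.13, adjusted p = 0.000899) and 0.76 in EuMyc Max KO against Max KO (SE 0.13, adjusted p = 0.00251).

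The TRAP complex helps some signal sequences to open the channel. Its alpha subunit Ssr1 (chr13:37966605-37994217, minus strand, mm10) had 178, 189 and 184 CPM in EuMyc Max KO, 243, 252 and 243 CPM in EuMyc, 154, 157 and 152 CPM in Max KO and 154, 156 and 164 CPM in WT. The EuMyc mice were highest and the EuMyc Max KO mice between them and the nontransgenic mice, with no overlap. The log2 change was 0.64 in EuMyc against WT (SE 0.047, adjusted p = 6.61e-08), -0.42 in EuMyc Max KO against EuMyc (SE 0.047, adjusted p = 3.38e-06) and 0.22 in EuMyc Max KO against WT (SE 0.047, adjusted p = 0.00535).

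Ssr2, the beta subunit, had 66.1, 73.3 and 81.6 CPM in EuMyc Max KO, 91.9, 102 and 103 CPM in EuMyc, 51.6, 48.2 and 49.9 CPM in Max KO and 63.6, 63.4 and 59.5 CPM in WT. The 4 groups did not overlap, with EuMyc highest and Max KO lowest. The log2 change was 0.67 in EuMyc against WT (SE 0.077, adjusted p = 4.52e-06), -0.42 in EuMyc Max KO against EuMyc (SE 0.077, adjusted p = 0.000254) and -0.32 in Max KO against WT (SE 0.078, adjusted p = 0.0187; up to 0.0657 without replicate 1 of WT or 2 of Max KO). Ssr3 was higher in EuMyc, with 228 to 239 CPM, than in WT, with 176 to 186 CPM (log2 change 0.37, SE 0.071, adjusted p = 0.000412). Ssr3 was lower in EuMyc Max KO than in EuMyc (-0.25, SE 0.071, adjusted p = 0.00584), a call that was lost with upper-quartile factors and library totals (highest adjusted p 0.121). Ssr4, the delta subunit, passed the test in none of the 6 contrasts.

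Signal peptidase cleaves the signal sequence once it has crossed the membrane, and of its 4 subunits the catalytic Sec11c changed most in EuMyc against WT and in EuMyc Max KO against EuMyc. It had 74.2, 74.9 and 84.0 CPM in EuMyc Max KO, 101, 98.5 and 110.0 CPM in EuMyc, 69.4, 78.1 and 73.7 CPM in Max KO and 84.7, 84.8 and 88.6 CPM in WT. Levels in EuMyc mice were above, and in both groups without Max below, those of every WT mouse. For Sec11c the log2 change was 0.26 in EuMyc against WT (SE 0.068, adjusted p = 0.00359; up to 0.116 with upper-quartile factors or library totals) and -0.41 in EuMyc Max KO against EuMyc (SE 0.068, adjusted p = 0.000119). In Max KO against WT it was -0.22 (SE 0.068, adjusted p = 0.045), and that call was lost in 10 of 19 alternatives, among them without any single WT replicate (highest adjusted p 0.166). Spcs2 was higher in EuMyc, with 143 to 145 CPM, than in WT, with 118 to 133 CPM (log2 change 0.22, SE 0.063, adjusted p = 0.00627). That call was lost with upper-quartile factors or library totals (highest adjusted p 0.224) and without WT replicate 2 (0.0619). The change of Spcs2 by -0.15 in EuMyc Max KO against EuMyc (adjusted p = 0.0488) was lost in 13 of 19 alternatives, among them without any single EuMyc replicate (highest adjusted p 0.717). Spcs1 was lower in Max KO, with 37.9 to 45.3 CPM, than in WT, with 49.9 to 58.0 CPM (log2 change -0.31, SE 0.092, adjusted p = 0.0384), a call lost in 5 of 19 alternatives, among them without WT replicate 3, Max KO replicate 1 or 2 or EuMyc Max KO replicate 2 (highest adjusted p 0.151). Spcs3 passed the test in none of the 6 contrasts.

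Oligosaccharyltransferase transfers the N-linked sugar, and Rpn1 and Rpn2 encode its ribophorins. Rpn1 had 173, 177 and 189 CPM in EuMyc Max KO, 236, 247 and 249 CPM in EuMyc, 146, 146 and 175 CPM in Max KO and 186, 177 and 188 CPM in WT. The EuMyc mice were the highest without overlap, and the Max KO mice were below every WT mouse. For Rpn1 the log2 change was 0.41 in EuMyc against WT (SE 0.070, adjusted p = 0.000168), -0.44 in EuMyc Max KO against EuMyc (SE 0.070, adjusted p = 8.14e-05) and -0.24 in Max KO against WT (SE 0.071, adjusted p = 0.0381). The last call was lost in 6 of 19 alternatives, with library totals or without replicate 1 or 3 of WT, 1 or 2 of Max KO or 2 of EuMyc Max KO (highest adjusted p 0.146). Rpn2 had 217, 218 and 227 CPM in EuMyc Max KO, 237, 265 and 252 CPM in EuMyc, 214, 210.5 and 213 CPM in Max KO and 215, 201 and 207 CPM in WT. The EuMyc mice were the highest, and the EuMyc Max KO mice lay between them and the nontransgenic mice without overlap, though not called against WT (adjusted p = 0.235) or Max KO (0.519) (log2 change of EuMyc against WT 0.28, SE 0.053, adjusted p = 0.000426). In EuMyc Max KO against EuMyc its log2 change was -0.19 (SE 0.053, adjusted p = 0.00649), a call lost with upper-quartile factors and library totals (highest adjusted p 0.25).

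Ostc, a subunit that joins the enzyme to the translocon, had 63.0, 61.5 and 71.2 CPM in EuMyc Max KO and 78.9, 92.6 and 88.6 CPM in EuMyc, without overlap (log2 change -0.41, SE 0.086, adjusted p = 0.000779). Against the 67.9 to 76.4 CPM of WT, EuMyc was higher by 0.29 (SE 0.086, adjusted p = 0.00911). Ddost, another subunit, had 135 to 154 CPM in EuMyc and 119 to 130.4 CPM in WT (log2 change 0.23, SE 0.066, adjusted p = 0.00768). Both calls in EuMyc against WT were lost without WT replicate 2 (adjusted p = 0.0602 for Ostc and 0.0768 for Ddost) or without EuMyc replicate 2 (0.0767 and 0.0629), and with upper-quartile factors and library totals; that of Ostc was also lost without WT replicate 3 (0.0717).

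Whether loss of Max acted differently with the transgene than without it was tested as the interaction, the log2 change in EuMyc Max KO against EuMyc minus that in Max KO against WT. It was positive and called for 11 of the 38 genes (28.9%) and negative and called for 5 (13.2%), against 27.8% and 27.9% of all genes (55.7% in all). The largest was that of Pdia4, at 1.07 (SE 0.14, adjusted p = 4.38e-05). Chaperones with a positive interaction were Creld2 (0.57), Dnajc3 (0.54), Dnajb9 (0.50), Hspa5 (0.45) and Calr (0.35). In the degradation machinery they were Derl1 (0.54), Sel1l (0.50) and Edem2 (0.42), and both sensors followed, Ern1 with 0.61 and Atf6 with 0.36. Creld2 was lower in Max KO than in WT and was not called in EuMyc Max KO against EuMyc (adjusted p = 0.971). The negative ones were Sec61b (-0.55), Canx (-0.50), Ssr1 (-0.39), Herpud1 (-0.38) and Rpn2 (-0.22). Without WT replicate 2, Max KO replicate 1 or EuMyc Max KO replicate 2, or with upper-quartile factors or library totals, the number of negative calls was 3. The calls for Herpud1, Ern1, Atf6 and Rpn2 were each lost in 4 to 9 of 18 alternatives, and the other 12 held in all of them. Myc itself changed by -0.95 in EuMyc Max KO against EuMyc and by 0.26 in Max KO against WT. Its part in the interaction was not tested.

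**Figure D5:**
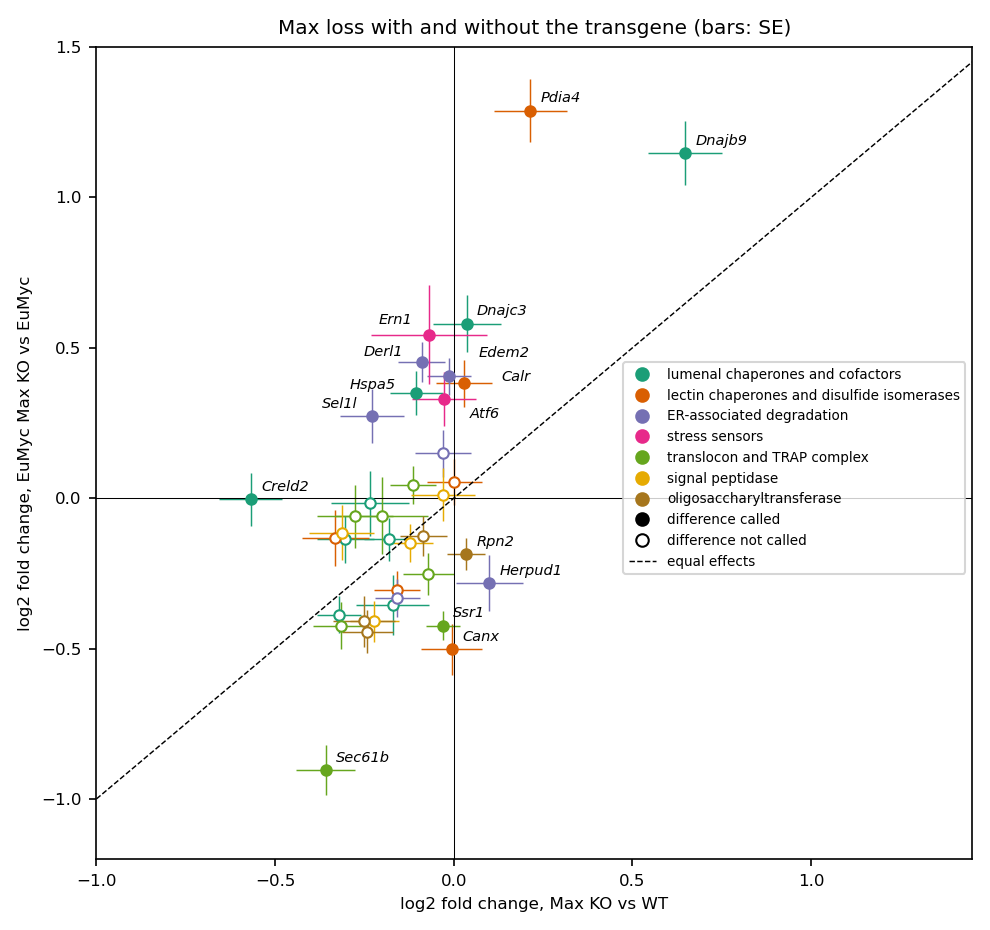
Log2 fold change of each of the 38 genes on loss of Max with the transgene (EuMyc Max KO against EuMyc, vertical axis) and without it (Max KO against WT, horizontal axis), with bars of 1 SE, a dashed line of equal change, and filled points for genes whose 2 changes differed by the interaction test. Pdia4 lies at 1.29 and 0.21, and Sec61b at -0.90 and -0.36.

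Among mice without Max, 10 of the 38 genes were higher with the transgene and 0 lower: Sdf2l1, Manf, Creld2, Pdia6, P4hb, Sec61b, Sec61g, Ssr1, Ssr2 and Spcs1 were higher in EuMyc Max KO than in Max KO. That was 26.3% of the members, against 10.7% of all genes higher and 3.69% lower (14.4% in all). At an unadjusted p under 0.05, and by DESeq2, the count lower was also 0. The median log2 change was 0.16 over the 38 and -0.002 over all genes. The mice of the 2 groups did not overlap for 15 members higher and 0 lower, against 17.2% and 15.1% of all genes. The count higher fell to 5 without Max KO replicate 1 or EuMyc Max KO replicate 2, and 1 member was called lower without EuMyc Max KO replicate 3. Over all genes 887 and 906 were higher in the first pair of these fits, against 1378 with all libraries. The number of all genes lower, 475 with all libraries, was 123, 156 and 1007 without EuMyc Max KO replicate 1, 2 and 3, and 192, 295 and 189 without Max KO replicate 1, 2 and 3. Over all genes, upper-quartile factors gave 1215 calls higher and 695 lower, against 1378 and 475 with TMM. The calls for Manf, Sec61b, Sec61g, Ssr1 and Ssr2 held in every alternative. Sec61g had the largest change, 0.76, followed by Ssr2 with 0.56 (SE 0.078, adjusted p = 0.000677), Sdf2l1 with 0.41 (SE 0.10, adjusted p = 0.0178; up to 0.0708 without replicate 1 or 3 of Max KO or 2 of EuMyc Max KO) and Sec61b with 0.38 (SE 0.083, adjusted p = 0.00944). Of 8 tested erythroid markers 6 were higher in EuMyc Max KO than in Max KO and of 11 plasma cell markers 2 were, with 0 of either lower; their part in the result was not tested.

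EuMyc Max KO cells set against WT cells had 4 members higher and 2 lower. Dnajb9 (log2 change 0.56, SE 0.10, adjusted p = 0.00242), Sec61g (0.55), Ssr1 (0.22) and Ssr2 (0.24) were higher, and Hyou1 (-0.28) and Syvn1 (-0.27) lower. These are 10.5% and 5.26% of the members, against 17.0% higher and 10.8% lower of all genes (27.8% in all). The mice of the 2 groups did not overlap for 6 members higher and 4 lower, against 22.2% and 19.6% of all genes. The log2 changes of the 38 genes ran from -0.28 to 0.56 with a median of 0.03; for the 32 genes that were not called the test does not show that the 2 groups were alike. The call for Ssr2 was lost in 9 of 19 alternatives, among them without any single WT replicate (highest adjusted p 0.16). Tested erythroid markers (8 of 8), tested neutrophil markers (5 of 5) and macrophage and monocyte markers (9 of 11) were higher in EuMyc Max KO than in WT, and 6 of 8 B cell markers were lower; their part in the result was not tested.

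A wider list of 91 other ER genes gave the context, and 88 of them were tested. In EuMyc against WT 33 were higher (37.5%) and 31 lower (35.2%), near the 36.7% and 34.9% of all genes. In EuMyc Max KO against EuMyc 32 were higher (36.4%) and 36 lower (40.9%), against 37.6% and 36.1% of all genes. In Max KO against WT 4 were higher (4.55%) and 11 lower (12.5%), against 7.27% and 7.74% of all genes. The median log2 changes of the wider list were 0.04, -0.01 and -0.05, in that order. Of the 16 other degradation and export genes 10 were lower in EuMyc than in WT (62.5%) and 4 higher (25%). Of the 15 other targeting and translocation genes 8 were higher (53.3%) and 2 lower (13.3%). The genes named next have the largest changes in each direction among the called genes with a mean of at least 5 CPM over the libraries compared.

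Edem3, a mannosidase of the degradation pathway, had 87.1, 95.9 and 94.9 CPM in EuMyc Max KO, 287, 266 and 256 CPM in EuMyc, 88.1, 84.5 and 93.5 CPM in Max KO and 91.6, 109 and 98.9 CPM in WT. It was the reverse of Edem2, with EuMyc mice far above the rest (log2 change against WT 1.43, SE 0.074, adjusted p = 3e-09; EuMyc Max KO against EuMyc -1.54, SE 0.074, adjusted p = 2.23e-09). Eif2s1, the translation factor subunit that PERK phosphorylates, had 89.8 to 94.9 CPM in EuMyc Max KO, 224 to 243 CPM in EuMyc, 70.1 to 80.7 CPM in Max KO and 84.9 to 92.6 CPM in WT (log2 change of EuMyc against WT 1.39, and of EuMyc Max KO against EuMyc -1.32). Srp19, of the signal recognition particle, had 58.7 to 61.8 CPM in EuMyc and 25.9 to 33.1 CPM in WT (1.02), and 31.1 to 35.9 CPM in EuMyc Max KO (-0.86 against EuMyc).

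Xbp1, the transcription factor that IRE1 activates and that plasma cells need, had 108, 122 and 142 CPM in EuMyc Max KO, 59.0, 56.7 and 69.8 CPM in EuMyc, 109, 114 and 123 CPM in Max KO and 136, 145 and 182 CPM in WT. The EuMyc mice were the lowest and the Max KO mice below every WT mouse. Its log2 change was -1.32 in EuMyc against WT (SE 0.13, adjusted p = 2.05e-06), 1.0 in EuMyc Max KO against EuMyc (SE 0.13, adjusted p = 2.18e-05) and -0.42 in Max KO against WT (SE 0.13, adjusted p = 0.0471). The last call was lost in 10 of 19 alternatives, among them without replicate 2 or 3 of WT, any single Max KO replicate, replicate 1 of EuMyc or 2 of EuMyc Max KO (highest adjusted p 0.147). Xbp1 and Derl3 stand both in this list and among the plasma cell markers. Ero1lb, an oxidase that recharges disulfide isomerases, had 188 to 216 CPM in EuMyc Max KO, 66.2 to 81.2 CPM in EuMyc, 221 to 253 CPM in Max KO and 189 to 198 CPM in WT (log2 change of EuMyc against WT -1.39, and of EuMyc Max KO against EuMyc 1.42). Wfs1, an ER membrane protein, had 11.6 to 13.1 CPM in EuMyc Max KO, 3.03 to 3.76 CPM in EuMyc and 9.46 to 11.4 CPM in WT (-1.64 for EuMyc against WT, and 1.84 for EuMyc Max KO against EuMyc).

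Derl3, a relative of Derl1, was higher in both groups without Max. It had 43.6, 38.7 and 65.6 CPM in EuMyc Max KO, 7.3, 5.1 and 11.3 CPM in EuMyc, 44.2, 53.1 and 57.2 CPM in Max KO and 13.6, 19.7 and 22.7 CPM in WT. All 6 mice without Max were above all 6 mice with it, as for Dnajb9. The log2 change was 2.64 in EuMyc Max KO against EuMyc (SE 0.31, adjusted p = 2.53e-05) and 1.46 in Max KO against WT (SE 0.29, adjusted p = 0.0108). Ppp1r15a (GADD34), the phosphatase subunit that ends the PERK arm, had 251, 168 and 52.4 CPM in EuMyc Max KO against 30.3, 21.3 and 28.6 CPM in EuMyc (log2 change 2.55, SE 0.46, adjusted p = 0.000749). Its EuMyc Max KO mice differed widely, and without replicate 3 the log2 change was 2.97.

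In Max KO against WT the other called genes chosen by this rule and higher were Sil1, a BiP exchange factor (log2 change 0.51, adjusted p = 0.0162), and Ero1lb (0.30, adjusted p = 0.0252). Those lower were Txndc5 (-0.73, adjusted p = 0.00429), Tram2 (-0.69, adjusted p = 0.0351) and Fkbp2 (-0.64, adjusted p = 0.00125). Txndc5, an isomerase abundant in plasma cells, had 180.5, 204 and 182 CPM in Max KO and 272, 323 and 342 CPM in WT, without overlap. Fkbp2, a prolyl isomerase of the ER, had 11.5, 13.8 and 13.0 CPM in Max KO and 19.8, 19.1 and 20.6 CPM in WT, also without overlap. Below that limit on the mean, and named after its values were seen, the related Fkbp11 had 1.19, 1.34 and 0.457 CPM in Max KO and 4.99, 4.72 and 5.66 CPM in WT, the lowest change of the wider list in this comparison (log2 change -2.36, SE 0.47, adjusted p = 0.00778). The call for Sil1 was lost without replicate 3 of WT or 1 or 2 of Max KO (highest adjusted p 0.0692), and that for Ero1lb without any single WT replicate or replicate 1 or 3 of Max KO (0.104). The call for Tram2 was lost with library totals, with a replicate block, or without replicate 2 or 3 of WT, 1 or 3 of Max KO or 2 of EuMyc Max KO (0.109).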

How the data were processed

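RNA was sequenced from B220+ splenocytes of 12 mice. Per the submitters' processing notes, bcl2fastq 1.8.4, TopHat2 2.1.0 and HTSeq 0.6.1 were used with genome build mm10; no source used here gives the annotation or strand setting. The deposited values are the authors' raw counts of reads by gene symbol, in a table for each mouse, with no normalization. The 5 rows that name no gene (34.9% to 45.45% of all counts in a table) were left out of library sizes and tests.

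Groups came from the genotype labels. In R 4.3.3 with edgeR 4.0.16, filterByExpr kept 12878 of 24421 genes, all 38 members among them, TMM factors scaled the libraries, and a single quasi-likelihood fit took in all 12 (8 residual degrees of freedom, common biological coefficient of variation 13.7%). P-values were adjusted by Benjamini-Hochberg over all genes within each of 6 contrasts. The SE is the absolute log2 change divided by the square root of F. An exact permutation test of 3 mice against 3 cannot go below 0.1. CPM values are relative to the RNA sequenced, and show no change in RNA per cell. Within each group no pair of libraries was a duplicate (chi-square per degree of freedom 7.46 to 65.63). The code was tested on simulated data.

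The members and lists were chosen with earlier results of these data known. Described in full were called members by adjusted p, up to 3 per role, members against the majority of their role and, of the wider list, the 3 called genes with the largest change in each direction and a mean of at least 5 CPM; a few more members were described after their values were seen. Coordinates and exon lengths are from GENCODE vM21, on mm10; a length joins the exons of all transcripts, so it can exceed that of the transcript in use. Without a known strand setting, reads of overlapping genes cannot be told apart: Hsp90b1, Derl2, Spcs1 and Rpn2 share 415, 231, 252 and 242 exonic bases with another gene. Immunoglobulin constant region genes were not analysed here.

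Alternatives were RLE, upper-quartile or no scaling factors, no filter, DESeq2 1.42.0, a replicate block, a fit of the compared groups alone and leaving out each library.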

Additional observations from a re-analysis of the deposited data

Results flagged for a closer look

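The effect of losing Max differed by the interaction test between mice with and without the transgene for 16 of the 38 genes, against 55.7% of all genes called. The value is the log2 change in EuMyc Max KO against EuMyc minus that in Max KO against WT. It was 1.07 for Pdia4, 0.61 for Ern1, 0.57 for Creld2, 0.54 for Derl1, 0.54 for Dnajc3, 0.50 for Sel1l, 0.50 for Dnajb9, 0.45 for Hspa5, 0.42 for Edem2, 0.36 for Atf6 and 0.35 for Calr. It was -0.55 for Sec61b, -0.50 for Canx, -0.39 for Ssr1, -0.38 for Herpud1 and -0.22 for Rpn2. With 3 mice in each group, no library was tested as standing apart for a single gene.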

How the results depend on the processing

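No call of a member reversed under any alternative. Of the members called, 21 of 26 were called in every alternative in EuMyc against WT, 19 of 25 in EuMyc Max KO against EuMyc, 3 of 10 in Max KO against WT, 5 of 10 in EuMyc Max KO against Max KO, 5 of 6 in EuMyc Max KO against WT and 12 of 16 in the interaction. With library totals, 5 members in place of 9 were lower in Max KO than in WT and 3 in place of 5 had a negative interaction, as with upper-quartile factors (3). Leaving out each library in turn gave 3 to 11 members lower and 1 to 2 higher in Max KO against WT, 5 to 11 higher and 0 to 1 lower in EuMyc Max KO against Max KO, and 3 to 6 with a negative interaction. The cause was not tested.

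The main fit did not pair the mice by replicate number. Between Max KO and WT all 6 libraries correlated best with their own number, with deviations of same-numbered libraries correlated by 0.0951 to 0.344. What same-numbered mice of these 2 groups shared was not tested. Between EuMyc Max KO and EuMyc the correlations were -0.0215 to 0.166, and 3 of 6 libraries correlated best with their own number. With a replicate block 15 members were higher and 12 lower in EuMyc against WT, 10 and 15 in EuMyc Max KO against EuMyc, 1 and 9 in Max KO against WT, 13 and 0 in EuMyc Max KO against Max KO, 4 and 2 in EuMyc Max KO against WT, and 11 and 5 in the interaction. Among the named genes of the wider list, Tram2 lost its call in Max KO against WT under the block.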

Other observations

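The plasma cell markers did not move together, and Xbp1 and Derl3 are given above. Prdm1 was lower in EuMyc than in WT (log2 change -2.28, adjusted p = 5.18e-06) and higher in EuMyc Max KO than in EuMyc (2.33, adjusted p = 4.43e-06). Ell2 did the same (-1.62, adjusted p = 4.64e-08, and 2.0, adjusted p = 9.12e-09), as did Jchain (-3.13, adjusted p = 0.00247, and 2.1, adjusted p = 0.0161). Irf4 ran the other way (0.62, adjusted p = 1.27e-05, and -0.96, adjusted p = 2.41e-07). Mzb1 was not called in either comparison (0.29, adjusted p = 0.0774, and -0.03, adjusted p = 0.872), nor was Sdc1 (-0.05, adjusted p = 0.803, and -0.28, adjusted p = 0.198). Slamf7 had 25.2 to 39.9 CPM in WT, 183 to 200 CPM in EuMyc and 32.1 to 44.8 CPM in EuMyc Max KO. Cd28 was lowest in EuMyc, with 6.07 to 9.95, 0.145 to 1.25 and 4.99 to 5.54 CPM in the same order of groups. Tnfrsf17 had 0.193 to 2.35 CPM in these libraries, and the 3 groups overlapped. The log2 changes and adjusted p-values come from edgeR's quasi-likelihood test.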
